A study of Mus musculus with 8 samples.

Results

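Transcripts of 8 genes of the interleukin-10 (IL-10) axis, of arginine metabolism and of alternative macrophage activation were examined in peritoneal exudate leukocytes of 8 mice, 12 h after zymosan. They are Il10, Il10ra and Il10rb, then Nos2, and then Il4ra, Retnla, Retnlg and Tgm2. They were picked by name from the 49671 genes of the deposited tables, with earlier results of these data known. All 8 had at least 10 counts over the 8 libraries and were among the 21423 genes tested.

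All mice were wild-type (WT) male C57BL/6 mice of 6 to 8 weeks, and all received zymosan A, a yeast cell wall particle, at 1 mg into the peritoneum on day 12. In the SPM group, 4 mice were given a panel of specialized pro-resolving mediators (SPMs), lipids made during the resolution of inflammation. The panel held the resolvins RvD1, RvD2, RvD5 and RvE2 and the maresin MaR1, at 0.1 ng of each, and was injected on days 0, 2, 5, 7 and then 9, with the sixth injection at the time of zymosan. In the vehicle group, 4 mice were given vehicle at the same times. The labels call the cells mixed leukocytes and number the mice, so each library is 1 mouse, and both groups were inflamed.

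IL-10 is secreted by activated myeloid and lymphoid cells and signals through a ligand-binding chain, IL-10Rα, and a shared chain, IL-10Rβ, to STAT3, which restrains the production of inflammatory cytokines. Inducible nitric oxide synthase, which macrophages make after microbial and interferon signals, turns arginine into nitric oxide. IL-4 and IL-13 act through IL-4Rα and STAT6 and, in mouse macrophages, induce the resistin-like molecule RELMα and transglutaminase 2, both used as markers of alternative activation.

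Gene counts totalled 15154054 to 21114301 per library, and the labelled cells carried the markers of exudate leukocytes. The summed level of the 9 neutrophil markers was between 12252 and 23809 CPM (counts scaled to a common library size by the TMM method), led by S100a9. The 6 monocyte markers summed to between 1687 and 2435 CPM and the 8 markers of large peritoneal macrophages to between 341.5 and 530.2 CPM. In these bulk libraries, fewer cells of a type and less RNA per cell cannot be told apart. Vehicle mice 3 and 1 stood apart in the number of genes with a count, 27592 and 26428, against 23051 to 24409 in the other 6 mice.

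None of the 8 members passed the test of SPM against vehicle, made with edgeR by a quasi-likelihood F test with p-values adjusted over all 21423 genes by the Benjamini-Hochberg method. The smallest adjusted p among them was 0.798, for Il10 and for Il4ra, and by the same test 0 of all genes, or 0%, had an adjusted p under 0.05. At an unadjusted p under 0.05, 0 members were called, against 1303 genes or 6.08% of all genes tested. For 0 members did the CPM of the SPM mice lie entirely above or below those of the vehicle mice, which held for 820 genes or 3.83% of all genes. The log2 fold change was above 0 for 4 members and below 0 for 4, with a median of -0.026, beside -0.017 over all genes. DESeq2's Wald test, limma and the exact permutation test over the 70 arrangements of the mice called 0, 0 to 1 and 0 members at an unadjusted p under 0.05. Vehicle mouse 3 had the highest CPM of its group for 7 of the 8 members, all but Tgm2, and by TPM for 3, namely Il10, Retnla and Retnlg.

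**Figure D1:**
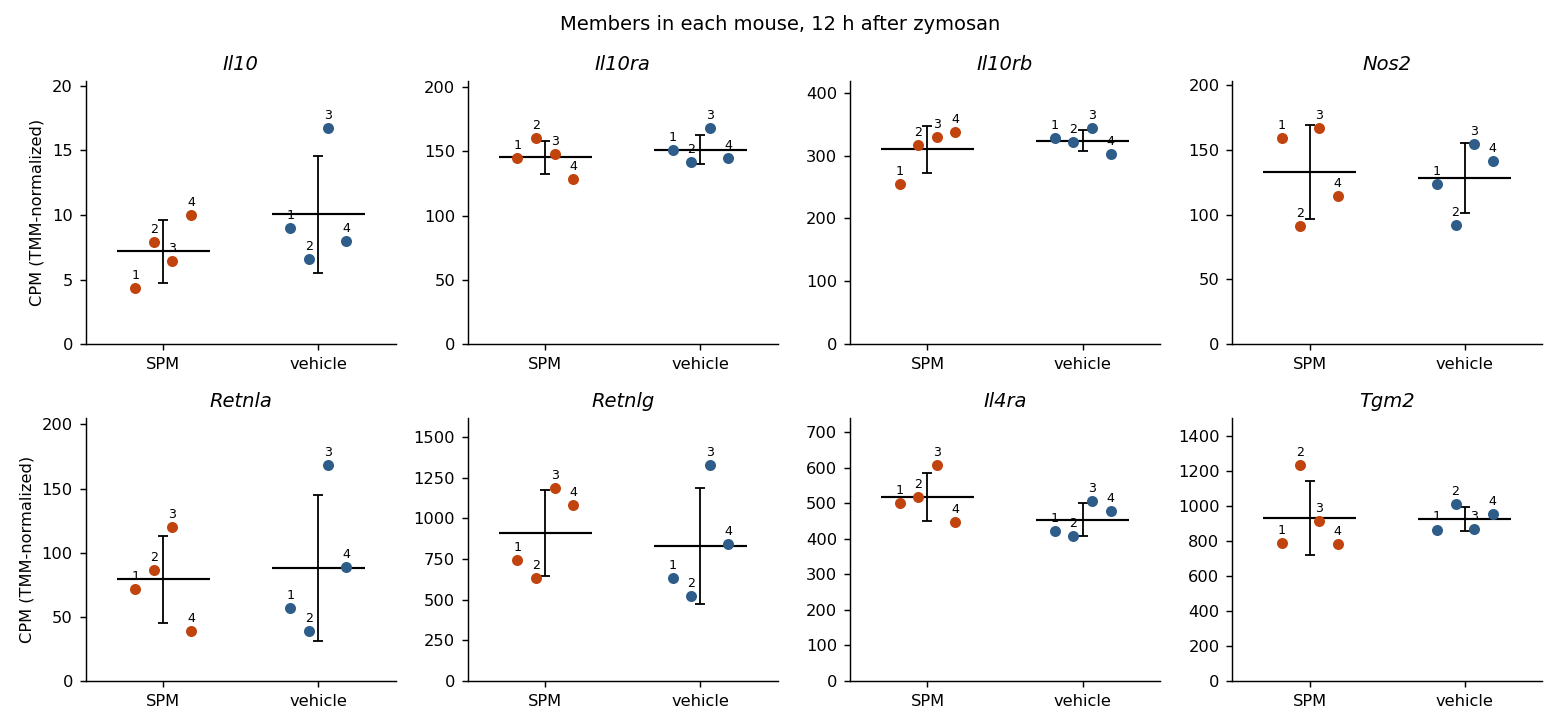
CPM of each member (vertical axes, from 0) in each mouse, with SPM mice in red and vehicle mice in blue, the mouse number above each point, and a line and bar for the mean and SD of 4 mice. The groups overlap for all 8 genes, and vehicle mouse 3 is the highest of its group for 7 of them, all but Tgm2.

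Levels per length, as the deposited TPM (counts scaled by gene length and by library), spanned from Retnlg, the 14th most abundant of the 49671 genes by mean TPM, to Il10, which ranked 5788. Retnlg had a median of 4416 TPM with SPM and 3450 with vehicle, and every mouse had more Retnlg than Tgm2 per length. Tgm2 ranked 263rd. Tgm2, with medians of 527 and 561 TPM, overlapped with Retnla, with 383 and 345 TPM. Il4ra and Il10rb lay together between 197.6 and 281.8 TPM in all 8 mice and could not be ordered. Retnla, at 189.4 to 559.7 TPM with SPM and 193 to 710.4 TPM with vehicle, overlapped with both of them. Below them, Il10ra had medians of 119.8 and 120.2 TPM and Nos2 of 90.5 and 84.6 TPM, without overlap in either group. Il10 was last, with medians of 15.5 and 18.4 TPM.

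**Figure D2:**
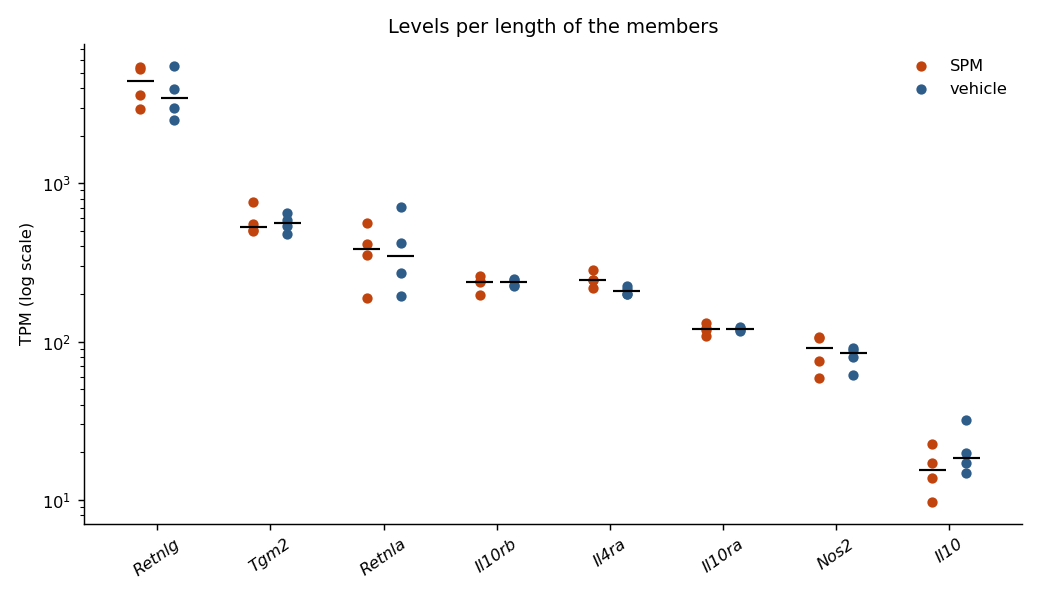
TPM of the 8 members on a logarithmic axis, in order of the mean over the 8 mice, with 1 point per mouse (SPM red, vehicle blue) and a line at the median of each group. Retnlg lies at 2517 TPM or more in every mouse, and Il10 at 32.2 TPM or less.

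Il10 (ENSMUSG00000016529, chr1:131019845-131024974 on the plus strand of GRCm38) encodes the cytokine itself. Its counts were 93, 145, 105 and 155 in SPM mice 1 to 4 and 189, 141, 327 and 163 in vehicle mice 1 to 4. Scaled for depth, it came to 4.31, 7.93, 6.45 and 10.01 CPM with SPM and to 9.01, 6.59, 16.7 and 7.97 CPM with vehicle. Vehicle mouse 3 stood highest and SPM mouse 1 lowest, and the other 6 mice lay between 6.45 and 10.01 CPM, so that the groups overlapped. Counting error alone gave vehicle mouse 3 a 95% Poisson interval of 14.9 to 18.6 CPM, above that of every other mouse. The means were 7.18 ± 2.40 CPM with SPM and 10.1 ± 4.52 with vehicle (SD, n = 4 each). The log2 fold change was -0.49 with a standard error of 0.29 and a 95% interval of -1.12 to 0.14 (edgeR, unadjusted p = 0.115, adjusted p = 0.798). The difference was -0.14 when vehicle mouse 3 was left out, and without both vehicle mice 1 and 3 it was -0.024, while without SPM mouse 4 it was -0.68 (edgeR, unadjusted p = 0.0488) and without vehicle mouse 2 -0.63 (unadjusted p = 0.0489). It was -0.29 without SPM mouse 1. With at least 1 count it was still -0.49 (edgeR, unadjusted p = 0.00379, adjusted p = 0.313), in a setting that called 2347 of all genes at an unadjusted p under 0.05.

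Il10ra (ENSMUSG00000032089, chr9:45253837-45269149, minus strand), the ligand-binding chain, was measured more narrowly. It lay between 129 and 160.3 CPM with SPM and between 142 and 168 CPM with vehicle, with a log2 fold change of -0.059 and a 95% interval of -0.27 to 0.15 (edgeR, adjusted p = 0.932), and was 0.0093 without SPM mouse 4. Il10rb (ENSMUSG00000022969, chr16:91406164-91425834, plus strand), the chain shared with other cytokines of the family, lay between 254.8 and 338 CPM with SPM and between 302.5 and 343 CPM with vehicle. SPM mouse 1 was the lowest, and without it the log2 fold change of Il10rb was 0.032 in place of -0.063. In folds, the 95% interval ran from 0.832-fold to 1.11-fold for Il10ra and from 0.819-fold to 1.12-fold for Il10rb. Exons of Il10rb overlap those of Gm21970 on the same strand, so that its reads could have been split or dropped in counting.

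The 2 chains stood at different levels from their ligand, with the receptor chains at 119.9 and 235.4 TPM and Il10 at 18.4 TPM on average over the 8 mice. Across mice, Il10 and Il10rb had a Pearson r of 0.768 (exact permutation p = 0.0413, adjusted p = 0.351 over 52 relations). This r dropped to 0.245 without SPM mouse 1 and vehicle mouse 3, and was 0.75 after subtraction of the group means. Those mice were the farthest from the median of Il10, and leaving them out narrows its range, which can lower r by itself. The genes with the CPM pattern closest to Il10 over the 8 mice were Tmem248, Atp6v0e and Bcl2a1a, with r of 0.969, 0.967 and 0.963 on the log2 scale, the highest among 8046 genes with a mean of at least 10 CPM.

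Nos2 (ENSMUSG00000020826, chr11:78920787-78960254, plus strand) encodes inducible nitric oxide synthase. It had 159.6, 91.4, 167 and 114 CPM for SPM mice 1 to 4 and 124, 92.2, 155 and 141 CPM for vehicle mice 1 to 4. SPM mouse 2 and vehicle mouse 2 were the lowest of their groups, and the groups overlapped over most of their range. Between the groups, the log2 fold change was 0.054 with a 95% interval of -0.36 to 0.47 (edgeR, unadjusted p = 0.784, adjusted p = 0.973), and it lay below 0 without SPM mouse 1 (-0.034), without SPM mouse 3 (-0.072) or without vehicle mouse 2 (-0.057).

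The 3 genes most like Nos2 were Tmem63a, Smarcd2 and Vrk3, with r of 0.953, 0.937 and 0.923.

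Il4ra (ENSMUSG00000030748, chr7:125552120-125579474, plus strand), the receptor chain that IL-4 and IL-13 share, had 500.5, 516.5, 607 and 447 CPM for SPM mice 1 to 4 and 421, 409, 507 and 477 CPM for vehicle mice 1 to 4. SPM mouse 3 was the highest, and SPM mice 1 and 4 fell within the vehicle range. The means were 518 ± 66.6 CPM and 453.6 ± 46.4 CPM (SD, n = 4 each), and the log2 fold change was 0.19 with a standard error of 0.11 and a 95% interval of -0.058 to 0.44 (edgeR, unadjusted p = 0.121, adjusted p = 0.798). It was 0.27 without SPM mouse 4 (edgeR, unadjusted p = 0.0382), 0.25 without vehicle mouse 3 (unadjusted p = 0.0415) and 0.23 by limma on log2(TPM + 1) (unadjusted p = 0.0354). Without SPM mouse 3 it was 0.11 (edgeR, unadjusted p = 0.377). Under every alternative it stayed above 0, between 0.11 and 0.27, and its smallest adjusted p without 1 mouse was 0.688, without vehicle mouse 3. Exons of Il4ra overlap those of Gm44876 on the opposite strand.

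Retnla and Retnlg, which encode the secreted proteins RELMα and RELMγ, lie beside each other on chromosome 16 with 28146 bases between them. Retnla (ENSMUSG00000061100, chr16:48842552-48844461, plus strand) is a STAT6 target of macrophages, and Retnlg (ENSMUSG00000022651, chr16:48872608-48874498, plus strand) is a transcript of neutrophils and bone marrow cells. Their coding sequences in the GENCODE M21 annotation, of 417 and 354 bases, were identical at 298 of 354 aligned bases, or 84.2%, and the longest run that the transcripts share was 49 bases. The stretch of coding sequence that begins with the longest run shared there, of 42 bases, is shown because a read that lies wholly within such a run cannot be placed at 1 gene alone, and capitals mark that run.
Retnla, coding bases 81 to 162: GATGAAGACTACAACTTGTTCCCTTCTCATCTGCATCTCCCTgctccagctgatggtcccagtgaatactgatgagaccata
Retnlg, coding bases 18 to 99: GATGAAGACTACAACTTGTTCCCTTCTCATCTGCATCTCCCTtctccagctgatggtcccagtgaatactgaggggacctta
The authors counted uniquely placed reads alone, and the read length is not given in the sources used here.

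The promoter windows of the pair, from 250 bases before to 50 after the start that RefSeq gives (GRCm38.p6), are shown because the neighbours stood at 388.6 and 4019 TPM on average over the 8 mice. RefSeq windows matched 3 of the 8 members, Il4ra, Retnla and Retnlg, and were searched on both strands for TTC followed by GAA with 4 bases between, the spacing that STAT6 favours, for the same with 3 bases between, the usual STAT spacing, and for the CCAAT and TATAAA boxes. Capitals mark the matches.
Retnla, chr16:48842359-48842658, plus strand: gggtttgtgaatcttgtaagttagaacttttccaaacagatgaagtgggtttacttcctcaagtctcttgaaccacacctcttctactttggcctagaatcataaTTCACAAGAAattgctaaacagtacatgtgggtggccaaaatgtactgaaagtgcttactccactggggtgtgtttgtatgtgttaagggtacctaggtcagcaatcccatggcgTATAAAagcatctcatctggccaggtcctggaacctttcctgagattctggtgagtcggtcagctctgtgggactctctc
Retnlg, chr16:48872358-48872657, plus strand: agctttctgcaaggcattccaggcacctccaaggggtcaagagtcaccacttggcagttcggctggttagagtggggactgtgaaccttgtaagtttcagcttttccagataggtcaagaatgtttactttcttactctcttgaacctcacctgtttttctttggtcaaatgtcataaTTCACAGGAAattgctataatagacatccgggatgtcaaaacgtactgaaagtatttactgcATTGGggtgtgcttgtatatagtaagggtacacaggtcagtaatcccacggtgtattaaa
Retnla held the motif with 4 bases between at -145 and TATAAA at -30 from the start, and Retnlg held the motif with 4 bases between at -72 and CCAAT, read on the other strand, at -10. None of the 4 was found in the window of Il4ra (chr7:125552021-125552320). Of 32851 windows of the same length, 6.95% held the motif with 4 bases between, 8.3% that with 3, 37.4% CCAAT and 13.6% TATAAA. Positions count from each gene's own RefSeq start. The bases around the motif are alike in both windows, so these starts lie at different places in the shared sequence. The positions therefore cannot be compared between Retnla and Retnlg. The Retnlg window ends in tattaaa, after bases like those before TATAAA in Retnla. A match is a description of the sequence, and no binding was measured.

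Retnla had the largest standard error of the 8 members. It had 71.8, 86.5, 120.1 and 38.6 CPM for SPM mice 1 to 4 and 56.5, 39.2, 168 and 88.5 CPM for vehicle mice 1 to 4. Vehicle mouse 3 and SPM mouse 3 were the highest, and SPM mouse 4 and vehicle mouse 2 the lowest, with the groups overlapping throughout. The difference between vehicle mouse 3 and SPM mouse 4 exceeded counting error, with 95% Poisson intervals of 162.5 to 174 CPM and of 35.6 to 41.9 CPM. That of vehicle mouse 2, 36.6 to 42.0 CPM, overlapped with that of SPM mouse 4. The log2 fold change of Retnla was -0.15 with a standard error of 0.39 and a 95% interval of -0.996 to 0.69 (edgeR, unadjusted p = 0.704, adjusted p = 0.958), so that a level of 0.502-fold or of 1.62-fold that of vehicle lay within it. The direction turned without vehicle mouse 3, to 0.37, and without SPM mouse 4, to 0.092.

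Retnlg was the most abundant member per length. It had 743, 631, 1186 and 1084 CPM for SPM mice 1 to 4 and 631, 520, 1327 and 845 CPM for vehicle mice 1 to 4. Vehicle mouse 3 was again the highest and vehicle mouse 2 the lowest. Its log2 fold change was 0.13 with a 95% interval of -0.44 to 0.71 (edgeR, unadjusted p = 0.625, adjusted p = 0.945). Without vehicle mouse 3 it was 0.46 (edgeR, unadjusted p = 0.0557) and without vehicle mice 1 and 3 it was 0.42. It lay below 0 without SPM mouse 3 (-0.019) or without vehicle mouse 2 (-0.018).

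Retnla and Retnlg had a Pearson r of 0.589 across the 8 mice (exact permutation p = 0.13, adjusted p = 0.423). Retnla and Il4ra had an r of 0.765 and a Spearman rho of 0.762 (exact permutation p = 0.0268 and 0.0368, adjusted p = 0.349 and 0.544), with an r of 0.922 without SPM mouse 4 and vehicle mouse 3. Retnla and Il10ra had an r of 0.777 (exact permutation p = 0.0233, adjusted p = 0.349). This r was 0.361 without that pair of mice, and 0.8 after subtraction of the group means. The pair was also the farthest from the median of Il10ra, and leaving it out narrows the range, which can lower r by itself. The genes most like Retnla were Pik3r6, Hcls1 and Gnai2, with r of 0.974, 0.964 and 0.962.

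Tgm2 (ENSMUSG00000037820, chr2:158116402-158146436, minus strand), the transglutaminase that crosslinks proteins and marks alternatively activated macrophages, lay between 784 and 1231 CPM with SPM and between 864 and 1008 CPM with vehicle. SPM mouse 2 was the highest of all mice, and SPM mice 1 and 4 were below every vehicle mouse. The log2 fold change was 0.0070 with a 95% interval of -0.30 to 0.32 (edgeR, unadjusted p = 0.962, adjusted p = 0.999), and leaving out SPM mouse 2 turned it to -0.16, vehicle mouse 1 to -0.022 and vehicle mouse 3 to -0.019. Exons of Tgm2 overlap those of Rprd1b and Gm20412 on the opposite strand.

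**Figure D3:**
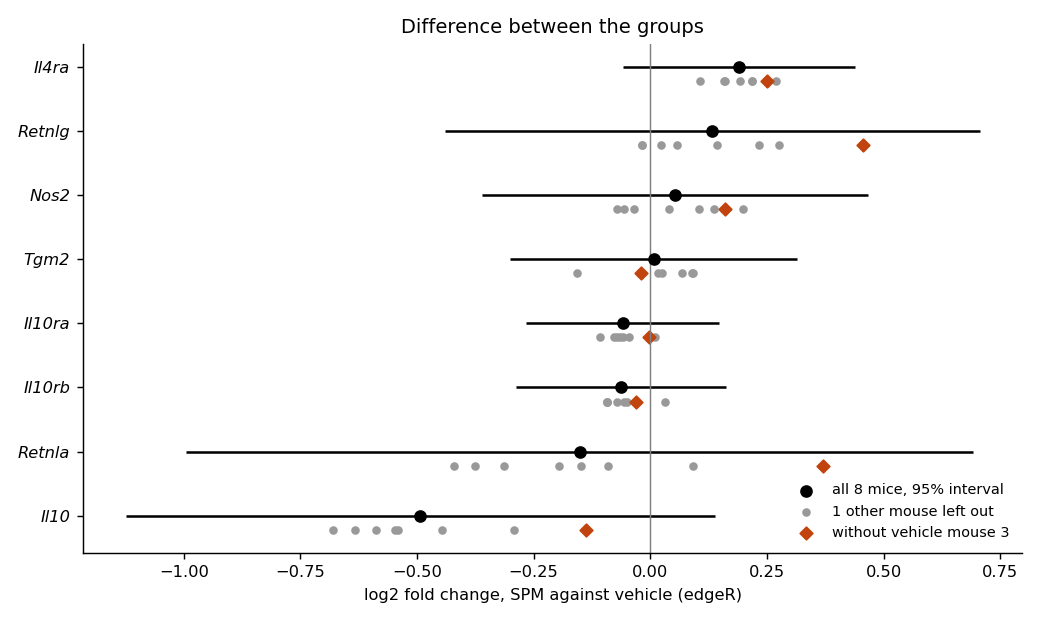
Log2 fold change of SPM against vehicle by edgeR for the 8 members, with the 95% interval over all 8 mice (black), and below each the value with 1 mouse left out (grey) and without vehicle mouse 3 (red diamond). All 8 intervals include 0, and the value of Retnla moves from -0.15 to 0.37 without vehicle mouse 3.

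Retnlg varied with the neutrophil markers across the mice. Each member was correlated with the summed CPM of the neutrophil, monocyte and large peritoneal macrophage markers, which gave 24 relations besides the 28 between members, and p-values were adjusted over all 52. Retnlg and the neutrophil markers had a Pearson r of 0.943 and a Spearman rho of 0.952 (exact permutation p = 0.000372 and 0.00114, adjusted p = 0.0193 and 0.0593). Leaving out vehicle mice 2 and 3, the farthest from the median of Retnlg, gave an r of 0.898, and after subtraction of the group means r was 0.963. This was the relation with an adjusted p under 0.05 by Pearson's r, and none had one by Spearman's rho.

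Il4ra had an r of 0.803 with the neutrophil markers (exact permutation p = 0.0169, adjusted p = 0.349). This r was 0.429 without SPM mouse 3 and vehicle mouse 2, and 0.762 after subtraction of the group means. Those mice were the farthest from the median of Il4ra, and leaving them out narrows its range, which can lower r by itself. Retnla had an r of 0.696 with the neutrophil markers (exact permutation p = 0.0532), which was 0.933 without SPM mouse 4 and vehicle mouse 3, and Retnlg an r of -0.68 with the monocyte markers (exact permutation p = 0.0585). Nos2 had an r of 0.676 with the neutrophil markers (exact permutation p = 0.0674) and Tgm2 an r of 0.679 with the monocyte markers (exact permutation p = 0.0668). Each of these 4 had an adjusted p of 0.351.

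The group ranges of the summed markers overlapped for all of the cell types listed, and the sums were not tested. The macrophage markers summed to 378, 481, 419 and 341.5 CPM for SPM mice 1 to 4 and to 530.2, 509, 489 and 394 CPM for vehicle mice 1 to 4. SPM mouse 2 and vehicle mouse 1 had the highest sum of their group. The neutrophil markers summed to 16350 to 23809 CPM with SPM and 12252 to 22154 CPM with vehicle, and 2 of 9 were higher with SPM at an unadjusted p under 0.05 by edgeR. Of the 8 macrophage markers 1 was lower and of the 6 monocyte markers 0 were called, while 2 of 6 B cell, 1 of 7 T and NK cell and 1 of the 6 tested eosinophil markers were higher and 1 of 6 mesothelial markers was lower, beside 6.08% of all genes. None of the mast cell, dendritic cell or fibroblast markers was called, and 0 markers had an adjusted p under 0.05. The part of these markers in the values of Retnla, Retnlg, Nos2, Il4ra and Tgm2 was not tested. The eosinophil markers Epx and Ear1 had under 10 counts over all mice and were not in the sum. The summed CPM of the 6 tested eosinophil markers lay between 44.0 and 92.6 CPM.

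**Figure D4:**
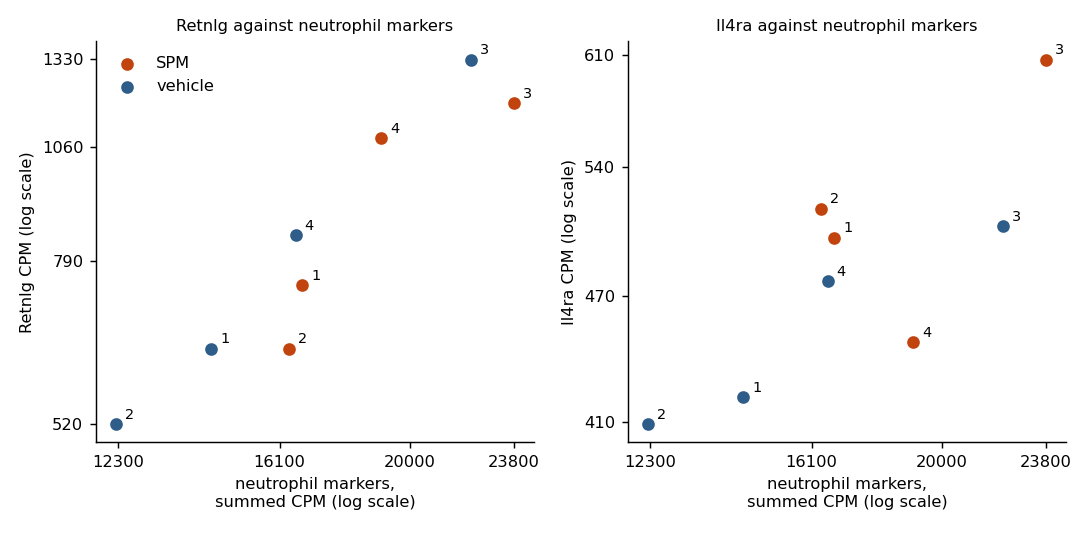
CPM of Retnlg and Il4ra against the summed CPM of the neutrophil markers, both on logarithmic axes, with 1 numbered point per mouse (SPM red, vehicle blue). Both panels were chosen for their high r (0.943 and 0.803), and mice of both groups lie along the trend of Retnlg.

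Of 95 other genes listed for the pathways around the members, 86 were tested, and 0 of them had an adjusted p under 0.05 by edgeR, DESeq2 or limma, except that edgeR called 2 when genes with at least 1 count were kept. At an unadjusted p under 0.05 by edgeR, 1 was higher and 3 were lower with SPM, or 4.65% against 6.08% of all genes. By list, this was 0 of 6 for the IL-10 family and its other receptors, 0 of 12 for IL-10 signalling and targets, and 1 of 12 for IL-4 and IL-13 ligands, receptors and signalling. It was 0 of 14 for alternative activation targets, 1 of 20 for arginine transport and metabolism, 1 of 16 for classical activation and 1 of 6 for the RELM and transglutaminase families. The list medians lay between -0.18, for arginine transport and metabolism, and 0.12, for the RELM and transglutaminase families, beside -0.017 for all genes.

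In the IL-10 family, Il22, which acts on epithelia, had 13, 6, 20 and 30 counts in SPM mice 1 to 4 and 29, 24, 56 and 51 in vehicle mice 1 to 4 (edgeR, log2 fold change -0.97, unadjusted p = 0.0536, adjusted p = 0.79). Its unadjusted p was 0.0036 with the replicate block (edgeR, log2 fold change -1.04), 0.00165 with at least 1 count, 0.00954 without SPM mouse 4 (-1.45), 0.0441 and 0.0303 without vehicle mouse 1 or 2, and 0.153 without vehicle mouse 3 (-0.73). Il19 had 0 to 4 counts in the SPM mice and 2 to 14 in the vehicle mice (edgeR, log2 fold change -1.51, unadjusted p = 0.0658). Its unadjusted p was 0.0331 with the replicate block, 0.0249 with at least 1 count, 0.0437 without SPM mouse 3 and 0.0242 without vehicle mouse 2, and its log2 fold change was -0.99 without vehicle mouse 3. Ifnlr1, the interferon lambda receptor chain that pairs with IL-10Rβ, had a log2 fold change of 0.23 (edgeR, unadjusted p = 0.0577). It passed the unadjusted threshold with RLE size factors (edgeR, unadjusted p = 0.044), filterByExpr (0.049), at least 1 count (0.0427) and DESeq2 (0.0495) and without SPM mouse 2 or vehicle mouse 4, and it was 0.13 without vehicle mice 1 and 3. Il20, Il24 and Il20ra had 3, 7 and 4 counts over all mice and were not tested.

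Downstream of IL-10, Jak1, the kinase bound to IL-10Rα, was at 598.7 to 611.6 CPM in the SPM mice and at 478.3 to 580.1 CPM in the vehicle mice, so that the groups did not overlap, as for 3.83% of all genes (exact permutation p = 0.0286, the smallest that it can give). Its log2 fold change of 0.16 missed the threshold (edgeR, unadjusted p = 0.118, adjusted p = 0.798), while DESeq2's Wald test gave 0.18 with an unadjusted p of 0.0361. It was 0.10 by edgeR without vehicle mouse 3. The IL-10 targets Tnip3 and Bcl3 had log2 fold changes of -0.28 and -0.14 (edgeR, unadjusted p = 0.0849 and 0.258). Tnip3 was at -0.16 without vehicle mouse 1, at 0.011 without vehicle mice 1 and 3 and at -0.27 with the replicate block (edgeR, unadjusted p = 0.047), and its unadjusted p was 0.0356 with at least 1 count, 0.0408 without SPM mouse 3 and 0.0288 without vehicle mouse 4. Bcl3 was at -0.042 without vehicle mouse 3, at -0.071 without SPM mouse 4 and at -0.21 without vehicle mouse 1. Il1rn, the IL-1 receptor antagonist and the most abundant of the list, had a log2 fold change of 0.10 (edgeR, unadjusted p = 0.554) at 1110 TPM on average, and lay between 0.039 without SPM mouse 3 and 0.26 without vehicle mouse 3 (unadjusted p = 0.0887).

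Beside Il4ra, its partner chain Il13ra1 was the gene of the IL-4 and IL-13 list that passed the unadjusted threshold. It had 153.6, 173, 197.5 and 167 CPM for SPM mice 1 to 4 and 136.5, 139, 151 and 157 CPM for vehicle mice 1 to 4, with vehicle mouse 4 above SPM mouse 1. A log2 fold change of 0.24 resulted (edgeR, unadjusted p = 0.0274, adjusted p = 0.79). It lay between 0.18 and 0.31 with 1 mouse left out, and its unadjusted p was over 0.05 without SPM mouse 3, without vehicle mouse 1 or 2, and without vehicle mice 1 and 3 together (0.23, unadjusted p = 0.0826). The transcription factors Klf4 and Irf4, which act in alternative activation, had log2 fold changes of -0.45 and 0.33 (edgeR, unadjusted p = 0.0726 and 0.1). Klf4 passed the unadjusted threshold with the replicate block (edgeR, unadjusted p = 0.00203), with at least 1 count (8.91e-05) and without SPM mouse 2 or vehicle mouse 3 or 4. It also passed without vehicle mice 1 and 3 together (-0.60, edgeR, unadjusted p = 0.0427). Klf4 was at -0.21 without vehicle mouse 2 (edgeR, unadjusted p = 0.343) and at -0.28 without SPM mouse 4 (0.23). Irf4 was at 0.52 without SPM mouse 3 (edgeR, unadjusted p = 0.000966), and at least 1 count gave an unadjusted p of 0.00464. It was at 0.22 without SPM mouse 4 (edgeR, unadjusted p = 0.278) and at 0.25 without vehicle mouse 1 (0.232). Ptpn6, the phosphatase SHP-1, was the most abundant of the list and had a log2 fold change of -0.037, which was 0.013 by limma.

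Of the alternative activation targets, the lectin Clec10a had a log2 fold change of -0.39 (edgeR, unadjusted p = 0.0636) and Egr2 of -0.14 (unadjusted p = 0.288). Egr2 was at -0.032 without SPM mouse 1, at -0.070 without vehicle mouse 3 and at -0.24 without SPM mouse 2 (edgeR, unadjusted p = 0.0876). The chitinase-like Chil3, the most abundant of these targets, had a log2 fold change of -0.20 (edgeR, unadjusted p = 0.317). Chil3 was at 1042 CPM in vehicle mouse 3, and its log2 fold change was 0.023 without that mouse. In the arginine list, the transporter Slc7a2, which carries arginine into macrophages, had 27.1, 41.5, 51.3 and 73.7 CPM for SPM mice 1 to 4 and 92.4, 55.7, 140.1 and 46.9 CPM for vehicle mice 1 to 4. Its log2 fold change was -0.79 (edgeR, unadjusted p = 0.0316, adjusted p = 0.79) and was -0.43 without vehicle mouse 3, with an unadjusted p over 0.05. Without both vehicle mice 1 and 3 it was -0.083 (edgeR, unadjusted p = 0.778). It also lost the unadjusted threshold without SPM mouse 1, 2 or 3 or vehicle mouse 1, with filterByExpr (unadjusted p = 0.0507), by DESeq2 (0.0992) and by limma in its 3 settings (0.101 to 0.117). It kept the threshold with the replicate block (edgeR, unadjusted p = 0.0201), with at least 1 count (6.85e-12), with RLE size factors or library size alone, and without SPM mouse 4 (0.00987) or vehicle mouse 2 (0.0173) or 4 (0.0102). Oaz1, the ornithine decarboxylase antizyme, was at 208.5 to 260.5 CPM with SPM and 260.7 to 339.2 CPM with vehicle (edgeR, log2 fold change -0.24, unadjusted p = 0.0533). The groups were apart by under 1 CPM, and by TPM they overlapped, with up to 294.6 in the SPM mice and down to 292 in the vehicle mice. Without vehicle mouse 3 the log2 fold change of Oaz1 was -0.14, while its unadjusted p was 0.0472 without SPM mouse 2, 0.0481 without vehicle mouse 1 and 0.044 with at least 1 count. Slc7a7, an arginine exporter, had a log2 fold change of -0.22 (edgeR, unadjusted p = 0.0644) and Sat1, the spermidine acetyltransferase and the most abundant of the list, of -0.012, which was 0.0076 with RLE size factors. With the replicate block, Clec10a and Slc7a7 passed the unadjusted threshold (edgeR, unadjusted p = 0.0393 and 0.0458), and so they did without SPM mouse 2 (0.0151 and 0.00749), Clec10a without vehicle mouse 4 (0.0499) and Slc7a7 without vehicle mouse 3 (0.0335).

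Of the classical activation genes, Tnf was at 159 to 185 CPM in the SPM mice and at 178, 189, 325.9 and 197 CPM in vehicle mice 1 to 4 (edgeR, log2 fold change -0.36, unadjusted p = 0.0462, adjusted p = 0.79). Leaving out vehicle mouse 3 gave -0.12, and the unadjusted p was also over 0.05 without any 1 of the SPM mice. Without vehicle mice 1 and 3 it was -0.15 (edgeR, unadjusted p = 0.144), and the threshold was missed with RLE size factors (unadjusted p = 0.0577), with filterByExpr (0.0699), by DESeq2 (0.0595) and by limma in its 3 settings (0.1 to 0.135). Cd80 and Cxcl10 had log2 fold changes of 0.24 and -0.27 (edgeR, unadjusted p = 0.0747 and 0.153), and with at least 1 count the unadjusted p was 0.0373 and 0.0197. Cd80 was at 0.37 without SPM mouse 1 (edgeR, unadjusted p = 0.00187), and Cxcl10 was at -0.10 without SPM mouse 4 and at -0.13 without vehicle mouse 4. In the transglutaminase family, F13a1, the A chain of coagulation factor XIII made by monocytes and macrophages, had 463, 549.4, 509 and 453 CPM for SPM mice 1 to 4 and 702, 633.5, 549.8 and 558 CPM for vehicle mice 1 to 4. In CPM every SPM mouse was below every vehicle mouse, by a margin of under 1 CPM between SPM mouse 2 and vehicle mouse 3 (edgeR, log2 fold change -0.31, unadjusted p = 0.0151, adjusted p = 0.79). By TPM the groups overlapped, with 398.5 in SPM mouse 2 and 353.6 in vehicle mouse 3. The unadjusted p was over 0.05 without SPM mouse 4 or vehicle mouse 1 and by limma in its 3 settings (0.0751 to 0.112). Tgm1 had a log2 fold change of 0.24 (edgeR, unadjusted p = 0.18; 0.0497 with at least 1 count), which was 0.12 without SPM mouse 3 and 0.15 without vehicle mouse 1. Retnlb had 0 to 4 counts per mouse.

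**Figure D5:**
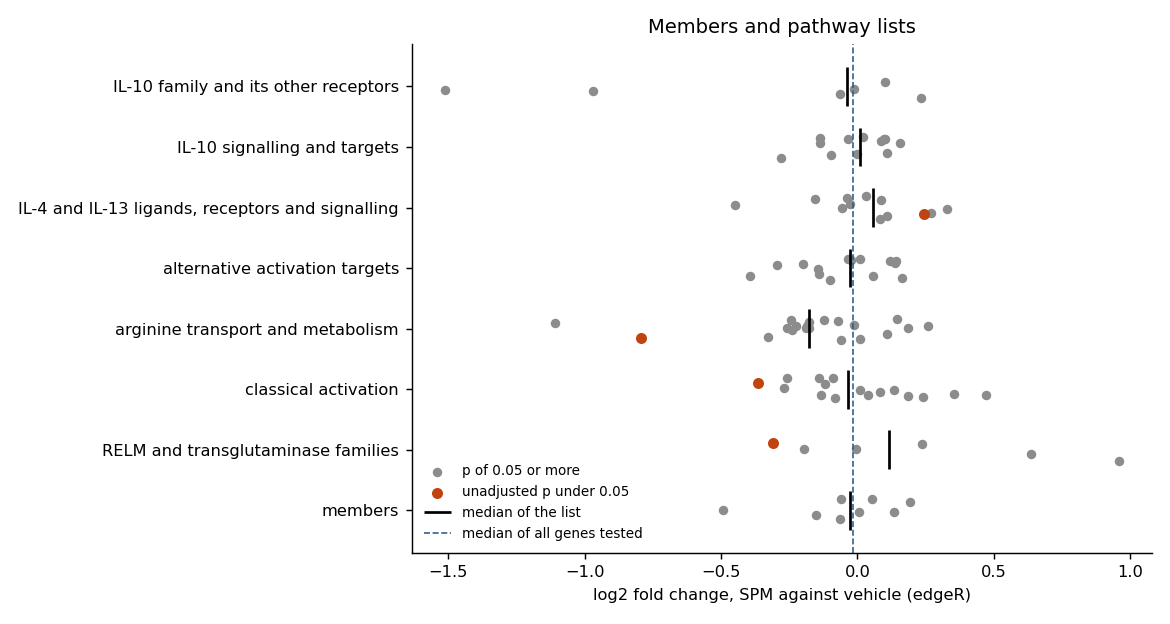
Log2 fold change of SPM against vehicle by edgeR for the 8 members and the tested genes of 7 pathway lists, 1 point per gene, with an unadjusted p under 0.05 in red, the median of each list as a black line and the median of all 21423 genes as a dashed blue line. The 4 red points are Il13ra1, Slc7a2, Tnf and F13a1, and no member is among them.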

How the data were processed

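Members and lists were chosen with earlier results of these data known. The authors sequenced the libraries paired-end, trimmed reads with Trimmomatic 0.36, mapped them with STAR 2.5.2b to GRCm38 with spike-in sequences, and counted unique reads in exons with featureCounts (Subread 1.5.2); the annotation release and strand setting are not given in the sources used here. The deposited counts are raw, and the deposited TPM are these counts scaled by gene length and library, by the authors. Here spike-ins were left out, genes with at least 10 counts in total were kept, and counts were tested with edgeR 4.0.16 (R 4.3.3; TMM, quasi-likelihood F test, no covariates, Benjamini-Hochberg adjustment). DESeq2 1.42.0 and limma 3.58.1 were alternatives, as were RLE size factors, library size alone, other count filters, a replicate block and each mouse left out. Leaving out vehicle mice 1 and 3 and the marker correlations were added after seeing the data. Permutation tests were exact and two-sided, and Poisson intervals cover counting error only. Coordinates are those of the deposited files. Tested on simulated data of this comparison (21419 genes), edgeR recovered 87 of 100 genes changed by a log2 fold change of 1 and 100 of 100 by 2, with 5 false calls. The changed genes had a mean of at least 1 CPM. Counts were drawn with the spread typical of genes at the same level and without outlying mice. Recovery can therefore be lower for genes that vary more between mice. Genes named are the members, in each list the 3 with the smallest p and the 1 with the highest TPM, and the 3 most like Il10, Nos2 and Retnla. Further genes of the set are not reported here. The 8 libraries differed by 7.58 to 56 in chi-square per gene over all 28 pairs, so none was a duplicate.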

Additional observations from a re-analysis of the deposited data

Results flagged for a closer look

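In the 32 members and named pathway genes, the 2 groups of 4 mice were each examined for a mouse far from the other 3. Of 64 groups 5 held such a mouse, where chance gives about 1 in 20. SPM mouse 2 had 67.0 CPM of Slc7a7, against 50.3 to 53.2 in the other SPM mice. Vehicle mouse 3 had 1042 CPM of Chil3, against 589 to 665 in the other vehicle mice, and 339.2 CPM of Oaz1, against 260.7 to 274. It also had 764 CPM of Sat1, against 653.9 to 671.3, and 325.9 CPM of Tnf, against 177.8 to 196.6.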

How the results depend on the processing

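With 4 mice a group, the lower end of the 95% interval was 0.502-fold for Retnla and 0.458-fold for Il10. No member had an adjusted p under 0.05 under any of the 18 alternatives run with edgeR, DESeq2 or limma. Il10 and Il4ra kept their direction under all 18.

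At an unadjusted p under 0.05, 0 to 2 members were called with 1 mouse left out, 1 when genes with at least 1 count were kept (Il10), 1 by limma on log2(TPM + 1) and 1 by limma with the TPM filter (a mean of 1 or more). Pathway genes were called 3 to 10 times with 1 mouse left out, 15 with at least 1 count, 2 by limma on log2(TPM + 1), 1 on log2(TPM + 0.1) and 1 with the TPM filter. Over all genes, 816 to 1584 were called with 1 mouse left out, 2347 with at least 1 count, 736 by limma with the TPM filter and 653 without vehicle mice 1 and 3. Adjusted calls with at least 1 count were 160 over all genes, 2 of them pathway genes. The cause of these shifts was not tested. Of the unadjusted calls, 41% were higher with SPM, against 51.3% with RLE size factors, 47.4% with library size alone, 52.4% by DESeq2 and 56.5% to 67.3% by limma.

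With the replicate block, 0 members, 11 pathway genes and 1333 genes in all were called at an unadjusted p under 0.05. The mouse numbers were not treated as pairs: the deviations of same-numbered mice had r of -0.0659, 0.128, 0.186 and -0.00596, and SPM mouse 1 was closest to vehicle mouse 4 (0.143). Tgm2 was at -0.015 under the replicate block.

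Signs turned as follows, with log2 fold changes ranging over the mice left out in turn. Il10ra ranged from -0.11 to 0.0093, Il10rb from -0.093 to 0.032, Nos2 from -0.072 to 0.20, Retnla from -0.42 to 0.37, Retnlg from -0.019 to 0.46, Tgm2 from -0.16 to 0.092, Ptpn6 from -0.091 to 0.048, Chil3 from -0.32 to 0.023 and Sat1 from -0.059 to 0.066. Without vehicle mice 1 and 3, the values were 0.024 for Il10ra, 0.32 for Retnla, -0.076 for Tgm2, 0.011 for Tnip3, 0.0033 for Ptpn6, 0.026 for Chil3 and 0.053 for Sat1. By limma in its 3 settings Ptpn6 was at 0.013 and Sat1 at 0.033. Sat1 was at 0.0076 with RLE size factors and with DESeq2, 0.00075 with library size alone and 0.0015 with filterByExpr. The cause of these turns was not tested.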
